A study of Mus musculus with 34 samples.

Results

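The comparison set the 22 arrays of mouse fetal liver whose label includes loss of Rb1 against the other 12, out of 34 arrays in the study. Each array was put on its side by its genotype label. Whole, unsorted, freshly isolated and untreated fetal livers were profiled on Affymetrix one-colour arrays from total RNA. The sample labels give embryonic day 14.5, and the design text gives days 13.5 to 14.5. On the side without Rb1 there were 2 arrays of Rb1 KO, 5 of Rb1;p107 DKO, 9 of Rb1;p130 DKO and 6 of Rb1;p107;p130 TKO. On the side that carried Rb1 there were 2 arrays of wild type, 1 of p107 KO, 3 of p130 KO and 6 of p107;p130 DKO. KO, DKO and TKO stand for single, double and triple knockout, p107 is the product of Rbl1 and p130 that of Rbl2. The labels name no strain, no Cre driver, no deleted exon and no source animal, and no agent was given to any group. They do not say whether arrays of a genotype came from separate fetuses, so every p-value here measures only the spread between arrays.

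The retinoblastoma protein, p107 and p130 are the pocket proteins. They bind E2F transcription factors, hold genes of DNA synthesis and mitosis low in resting and differentiating cells, and are released from E2F when cyclin-dependent kinases phosphorylate them. At this age the liver is the main site of red cell production, in which erythroblasts leave the cell cycle, condense the nucleus and expel it, and Rb1 is known to be needed for that last step.

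An additive model was fitted with limma to log2(signal + 32), with separate additive terms for Rb1 status, for p107 status and for p130 status, so that the Rb1 term pools the 4 backgrounds (wild type, p107 lost, p130 lost, both lost). A change below is that term, the log2 difference of arrays without Rb1 minus arrays with it, given ± its standard error (SE, 22 against 12 arrays). A gene is called, or said to rise or fall, at a Benjamini-Hochberg adjusted p under 0.05 over the 12719 genes tested. Signals are MAS5 values scaled to a trimmed mean of 500 on each array, and a signal ranks arrays for 1 gene, not genes against each other.

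The Rb1 probe set bore out the labels on every array. Rb1 signal ran from 5208 to 9085 (median 6105) on the 12 arrays with Rb1 and from 756 to 1746 (median 1306) on the 22 without it. The groups did not overlap, and the change was -2.43 ± 0.11 (adjusted p = 3.28e-19). Signal above the array medians given below thus remained on all 22 arrays called without Rb1. The labels do not say whether this probe set lies in the deleted part. A second Rb1 probe set lay near background in both groups, with medians of 24.1 and 43.2. The 34 arrays had a median signal of 80.6 to 116, and the median correlation of an array with the other arrays was 0.945 to 0.974. Whole liver markers were present. Alb and Afp of hepatocytes, Klf1, Alas2 and Tfrc of red cell precursors, S100a8 and Mpo of neutrophils and Pf4 of megakaryocytes had medians between 9419 and 37950.5, while the B lymphoid markers Cd79a and Vpreb1 were near background (medians 27.7 and 22.8). Xist, which marks females, was high on 12 of the 22 arrays without Rb1 and on 5 of the 12 with it. With Rb1 it was high on 1 of 2 wild type, 0 of 1 p107 KO, 3 of 3 p130 KO and 1 of 6 p107;p130 DKO arrays. Without Rb1 it was high on 0 of 2, 3 of 5, 5 of 9 and 4 of 6 in the same order, so sex was not balanced within backgrounds. Arrays were also cut into 3 inferred array groups of 15, 10 and 9 arrays, built from probe sets of the same gene without use of genotype. The number of groups was set and not found in the data. These held 9, 6 and 7 arrays without Rb1. They were uneven over the genotypes of p107 and p130. The group of 10 held 4 of 5 Rb1;p107 DKO arrays, 0 of 9 Rb1;p130 DKO arrays and 0 of 3 p130 KO arrays. Replicate 1 of the Rb1;p107 DKO and replicate 9 of the Rb1;p130 DKO stood apart from their genotypes most often among the genes described here. The total number of called genes without each of them is given below, and the counts without them for some of the lists.

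Loss of Rb1 changed many genes by little. Of 12719 genes, 289 were called (2.27%), 223 higher (1.75%) and 66 lower (0.519%). Only 14 called genes changed by a log2 value of 1 or more, which is a doubling or halving, while 205 (70.9%) changed by under 0.5 and 86 by under 0.3. The median rise among called genes was 0.37, or 29.4% more signal, and the median fall -0.37, or 22.5% less (a change of -22.5%). The smallest called change was 0.18. Over all genes tested the median change was -0.016 and 45.0% lay above 0. The called genes thus lean upward relative to the genes as a whole. Every array was scaled to the same trimmed mean, so a shift shared by most genes could not be seen.

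Called genes were brighter and less spread than the rest. The called genes had a median SE of 0.082 against 0.11 for all genes tested, and a median mean log2 signal of 10.8 against 9.03. When the genes tested were cut into 4 equal bins by mean signal, 0.314%, 1.23%, 2.33% and 5.22% were called from the dimmest to the brightest bin, with a median SE of 0.161, 0.111, 0.0885 and 0.0797. The set of called genes therefore leans to bright genes, where a small change exceeds the spread more easily.

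**Figure D1:**
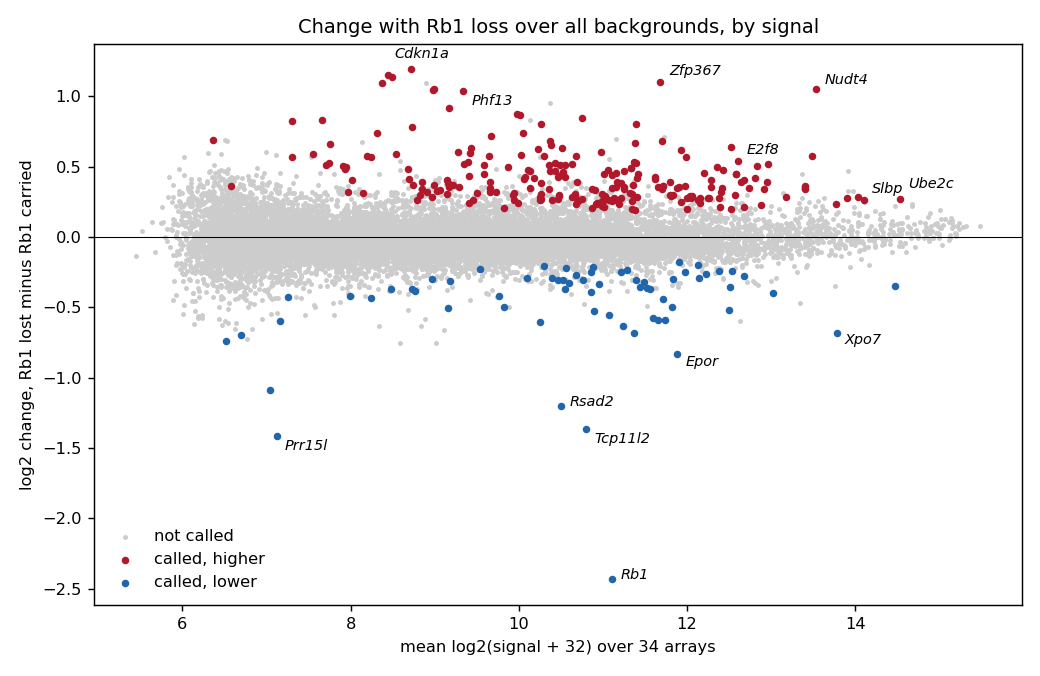
Log2 change with Rb1 loss (arrays without Rb1 minus arrays with it, additive fit) against the mean log2(signal + 32) over 34 arrays, 1 point per gene tested, with called genes in red (223 higher) and blue (66 lower). Most called genes lie within 0.5 of 0 and toward the bright side, and Rb1 itself is the lowest point at -2.43.

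Array by array, most of the 22 without Rb1 lay on the side of the change. For the median called gene, 21 of the 22 arrays without Rb1 lay beyond the mean of the 12 arrays with it in the direction of the change. The lowest number was 17, and for 111 called genes it was all 22. The genes were called on these same arrays, which favours such counts, here and for single genes below. The counts describe the called genes, and the share over all genes tested is not given. Complete separation was rare: in 7 of 12719 genes (0.055%) no array of one side reached the other. These were Cdkn1a, Mzt1, Pcgf5, Phf13 and Plekhf2, higher without Rb1, and Rb1 and Tcp11l2, lower. Of the 181 called genes with a second probe set, 176 had the same sign there, 109 of them at an unadjusted p under 0.05, and 0 had the opposite sign at that level. Second probe sets read the same RNA on the same arrays, so they check the probes and not the samples.

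The total depended on how the spread between arrays was treated. It was 309 without replicate 1 of the Rb1;p107 DKO, 337 without replicate 9 of the Rb1;p130 DKO and 352 without replicates 8 and 9 of the latter. It was 561 with the inferred array group as a block, with all 289 called again in the same direction, and 122 when the Rb1 effect was the equal-weight mean of the 4 backgrounds, 1 of which rests on the single p107 KO array (119 without that background). Within each array group alone it was 200, 186 and 4, and in the last of these, with 7 arrays against 2, 268 of the 289 changes kept their sign and 21 did not. With sex as a term it was 279. In 34 fits that each left out 1 array, 190 of the 289 genes (65.7%) kept their call every time and 30 lost it in at least 20 fits. Genes among the latter are pointed out where they are named.

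Several brakes of the cell cycle rose. Of 27 cell-cycle kinase, cyclin and inhibitor genes tested, 8 were called higher and 0 lower (29.6% called, against 2.27% of all genes), although the median of the list was only 0.03. Without replicate 9 of the Rb1;p130 DKO 10 were called higher, as were 10 with the array group as a block. The largest rise in the whole comparison was Cdkn1a, which encodes the kinase inhibitor p21. The 12 arrays with Rb1 gave Cdkn1a signals of 129.5 to 296 (median 224), and the 22 without it 322 to 973 (median 571). The groups did not overlap, and the change was 1.19 ± 0.12 (adjusted p = 7.15e-09). By genotype, median Cdkn1a signals with Rb1 were 173 in wild type, 296 with p107 lost (1 array), 215 with p130 lost and 229 with both lost, and without Rb1 477, 585, 462 and 588 in the same order. Cdkn2c, the inhibitor p18 of the kinases CDK4 and CDK6, changed by 0.69 ± 0.08 (adjusted p = 2.06e-07). With Rb1 the Cdkn2c signal lay between 1983 and 3175 with a median of 2416, and without it between 3036 and 5195 with a median of 3779. Of the 22 arrays without Rb1, 3 lay below the highest array with it, and all 22 lay above the mean of those with it. Its sister Cdkn2d changed by 0.52 ± 0.091, from a median of 6466 to 9248. Cdkn1b, which encodes p27, changed by 0.45 ± 0.11, and Ccng2, an unconventional cyclin tied to arrest, by 0.47 ± 0.12. The motors of the cycle rose less. Cdk2 changed by 0.28 ± 0.074, Ccna2 (cyclin A2) by 0.23 ± 0.062 and Cdk1, the kinase of mitotic entry, by 0.22 ± 0.044. For Cdk1, the 22 arrays without Rb1 read 6718 to 8945 (median 7980.0), against 6133 to 7446 (median 6956) on the 12 with it. These ranges overlap, and 20 of the 22 arrays without Rb1 lay above the mean of those with it. The brightest members not called were Cks1b (0.08 ± 0.064, adjusted p = 0.717) and Cks2 (0.03 ± 0.062, 0.938). Ccng2 lost its call without wild type replicate 1 (adjusted p = 0.0664). The calls of Cdk2 and Ccna2 did not survive every fit that left out 1 array and were lost in 11 and 6 of 34, with an adjusted p of up to 0.0781 and 0.0826.

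The MYC antagonists Mxi1 and Mxd3 rose as well, by 0.62 ± 0.083 and 0.51 ± 0.082 (adjusted p = 3.84e-06 and 7.32e-05). Both compete with MYC for its partner MAX. Mxi1 went from a median of 2832 to 4638, with all 22 arrays above the carried mean. They were the 2 called among 12 genes tested of the MYC and MAX network, against 2.27% called of all genes. This group was drawn up after its values were seen. The growth brake Btg1 changed by 0.43 ± 0.072, and Phlpp2, a phosphatase that switches off AKT, by 0.57 ± 0.066. Phlpp2 signal was 780.4 to 1111 (median 941) where Rb1 was present and 1071 to 1764 (median 1511) where it was lost. Of the 22 arrays without Rb1, 2 fell within the range of those with it.

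A few genes of the E2F factors and the DREAM complex rose by small steps. Of 19 E2F and DREAM complex genes, 3 were called higher and 0 lower (15.8%, against 2.27% of all genes). The list median was 0.12 against -0.016 for all genes, and 5 were called with the array group as a block. The 3 were E2f8 (0.54 ± 0.093), E2f1 (0.46 ± 0.073) and E2f7 (0.42 ± 0.084). E2f1 is an activator of S-phase genes, while E2f7 and E2f8 repress them. E2f8 read 3956 at the lowest, 4804 at the median and 6737 at the highest with Rb1, and 5037, 6582 and 9927 without it. The ranges overlap, and all 22 arrays lay above the carried mean for each of these 3 genes. Zfp367, a zinc finger transcription factor, showed the fourth largest rise of all at 1.10 ± 0.11 (adjusted p = 6.22e-09). The median Zfp367 signal was 1869 with Rb1 (range 1643 to 2481) and 4376 without it (range 2054 to 6736). Only 1 array without Rb1, replicate 9 of the Rb1;p130 DKO at 2054, lay inside the range of the others. By genotype, median Zfp367 signals with Rb1 were 2140.4 in wild type, 1867 with p107 lost (1 array), 1870.2 with p130 lost and 1915 with both lost, and without Rb1 4469.9, 5335, 4335 and 4454 in the same order.

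Stretches of 80 bases upstream of the start of Zfp367, E2f8, Cdkn2c and Pcgf5 (a polycomb gene described below) are printed because each rose and holds a match to an E2F site. They come from RefSeq on build GRCm38.p6 and run 5′ to 3′ on the gene's strand. They lie at chr13:64152397-64152476 (minus strand), chr7:48881665-48881744 (minus), chr4:109666757-109666836 (minus) and chr19:36348249-36348328 (plus). For Cdkn2c and for Pcgf5, another annotated start holds no match. Capitals mark an E2F site, on either strand, written here as TTGGCGC, with its variants TTCCCGC, as well as TTCGCGC, and also TTGCCGC.
Zfp367: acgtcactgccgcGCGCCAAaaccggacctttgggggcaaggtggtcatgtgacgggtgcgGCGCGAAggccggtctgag
E2f8: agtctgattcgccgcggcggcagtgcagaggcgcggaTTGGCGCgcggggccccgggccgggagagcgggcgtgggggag
Cdkn2c: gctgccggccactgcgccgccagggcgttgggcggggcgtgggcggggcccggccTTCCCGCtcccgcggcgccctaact
Pcgf5: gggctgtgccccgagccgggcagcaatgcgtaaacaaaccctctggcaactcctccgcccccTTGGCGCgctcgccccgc

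The replication machinery itself moved little. Of 47 DNA replication genes, 4 were called higher and 0 lower (8.51%, against 2.27% of all genes). At an unadjusted p under 0.05, 15 were higher and 0 lower, and the median was 0.07. With the array group as a block 8 were called. With the replicate number as a block 2 were called and the median was 0.0012. By background the list median was 0.0041 in wild type, 0.12 with p107 lost (1 array with Rb1), 0.066 with p130 lost and 0.024 with both lost. Dtl, a substrate receptor of the ligase that clears CDT1 and p21 during S phase, changed by 0.31 ± 0.077. Slbp, which binds the stem-loop of histone mRNA, changed by 0.26 ± 0.049, and Prim1, the catalytic primase subunit, by 0.22 ± 0.055. Arrays without Rb1 had Slbp signals of 15781 to 20891 (median 18784), against 13528 to 17919 (median 15537) with it. The ranges overlap, yet all 22 arrays without Rb1 lay above the carried mean. Uhrf1, which carries DNA methylation through replication, changed by 0.28 ± 0.08. The brightest members, Pcna (0.19 ± 0.066, adjusted p = 0.155) and Rrm2 (0.23 ± 0.075, 0.110), were not called. Leaving out 1 array at a time, the calls of Prim1 and Uhrf1 were lost in 5 and 25 of 34, with an adjusted p of up to 0.0644 and 0.112.

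A few histone supply and repair genes rose. Of 19 histone and histone chaperone genes, 3 were called higher: Asf1b, a chaperone of newly made histones (0.39 ± 0.075), Slbp, and H2az2, a histone variant (0.20 ± 0.053). The 3 called were 15.8% of the list, against 2.27% of all genes. The count was 7 with the array group as a block and 5 with quantile normalization. By background the list median was 0.0032 in wild type, 0.27 with p107 lost (1 array with Rb1), 0.068 with p130 lost and 0.15 with both lost. Asf1b signal ran from 4436 to 6530.1 (median 5412) on the 12 arrays with Rb1 and from 5497 to 9112 (median 6712) on the 22 without it. Of 41 DNA repair and checkpoint genes, Brca1 (0.42 ± 0.09) and Clspn, the checkpoint mediator claspin (0.41 ± 0.092), were called higher and 0 lower. This was 4.88% of the list, against 2.27% of all genes, and 2 calls are too few to describe repair genes as a set. The repair list median was 0.0038 in wild type, -0.0024 with p107 lost, 0.079 with p130 lost and 0.066 with both lost. H2ax, the brightest uncalled member, changed by 0.32 ± 0.095 (adjusted p = 0.0603). Further called genes of this kind, named after their values were seen, were Fbxo5, an inhibitor of the anaphase-promoting complex (0.51 ± 0.11), Atad2 (0.47 ± 0.11), Tcf19 (0.35 ± 0.084), Rad51c (0.33 ± 0.078) and the replication-dependent histone gene H3c11 (0.82 ± 0.15), whose sequence is close to that of other histone genes, so that its signal may be shared. Tcf19 lost its call without wild type replicate 1 (adjusted p = 0.0503). The H2az2 call was lost in 11 of the 34 fits that left out 1 array, with an adjusted p up to 0.0812.

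Mitosis genes lay above 0 in a larger share than any other of the 42 lists. Of 57 mitosis and spindle genes tested, 52 had a change above 0, 24 were higher and 0 lower at an unadjusted p under 0.05, and the median was 0.15. At the adjusted threshold 9 were called higher and 0 lower (15.8%, against 2.27% of all genes). The most firmly called was Ckap2, a microtubule protein (0.35 ± 0.059, adjusted p = 0.000154), followed by Prc1, which bundles microtubules of the central spindle (0.29 ± 0.053, 0.000410). The 12 arrays with Rb1 gave Prc1 signals of 3286 to 4723 (median 3631), and the 22 without it 3773 to 5195 (median 4684). Ranges overlap, with all 22 arrays above the carried mean. Nusap1 and Tpx2 of the spindle changed by 0.42 ± 0.09 and 0.28 ± 0.068, the condensin subunit Ncapd2 by 0.27 ± 0.066, and Ube2c, which starts ubiquitin chains for the anaphase-promoting complex, by 0.27 ± 0.067. The kinesins Kif11 and Kif23 changed by 0.29 ± 0.082 and 0.26 ± 0.068, and Ndc80 of the kinetochore by 0.63 ± 0.17. The brightest uncalled members were Pttg1, which encodes securin (0.15 ± 0.11, adjusted p = 0.714), and Cdc20 (-0.0034 ± 0.072, 0.993). The count was 17 with the array group as a block, 11 without replicate 1 of the Rb1;p107 DKO and 9 without replicate 9 of the Rb1;p130 DKO. With the replicate number as a block it was 7. The median of the list by background was 0.0035 in wild type, 0.22 with p107 lost, 0.15 with p130 lost and 0.22 with both lost. Ube2c lost its call without wild type replicate 1 (adjusted p = 0.0683) or p107 KO replicate 1 (adjusted p = 0.0544). The calls of Kif23, Ndc80 and Kif11 did not survive every fit that left out 1 array and were lost in 7, 14 and 25 of 34, with an adjusted p of up to 0.0641, 0.0903 and 0.109.

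Cdk1 and Prc1 are shown with the cell-cycle homology region element (CHR, TTTGAA, in capitals on either strand) through which the MuvB complex acts. They lie at chr10:69352913-69352992 (minus strand) and chr7:80294396-80294475 (plus strand) of GRCm38.p6, from RefSeq, upstream of the start and 5′ to 3′ on the gene's strand.
Cdk1: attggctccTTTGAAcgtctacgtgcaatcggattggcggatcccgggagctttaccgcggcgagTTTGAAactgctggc
Prc1: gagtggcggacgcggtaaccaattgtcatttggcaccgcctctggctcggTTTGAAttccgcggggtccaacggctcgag

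Centrosome genes were a further group, drawn up after its values were seen. Of 31 tested, 8 were called higher and 0 lower, against 2.27% called of all genes, and the median was 0.12. Mzt1, a small partner of the gamma-tubulin ring complex, was the clearest. With Rb1 the Mzt1 signal lay between 4162 and 5829.6 with a median of 5025, and without it between 5929 and 8296 with a median of 6598. The groups did not overlap, and the change was 0.45 ± 0.056 (adjusted p = 8.28e-07). Stil, needed to build centrioles, changed by 0.53 ± 0.091, and Ccp110, which caps them, by 0.47 ± 0.092. Kiz (0.43 ± 0.085), Alms1 (0.48 ± 0.091) and Cep170 (0.41 ± 0.091) are centrosome or centriole proteins too. The count was 6 without replicate 1 of the Rb1;p107 DKO. Condensin genes, chosen in the same way, were above 0 in all 8 members tested with a median of 0.27, and Ncapd3 (0.20 ± 0.049) was called beside Ncapd2.

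**Figure D2:**
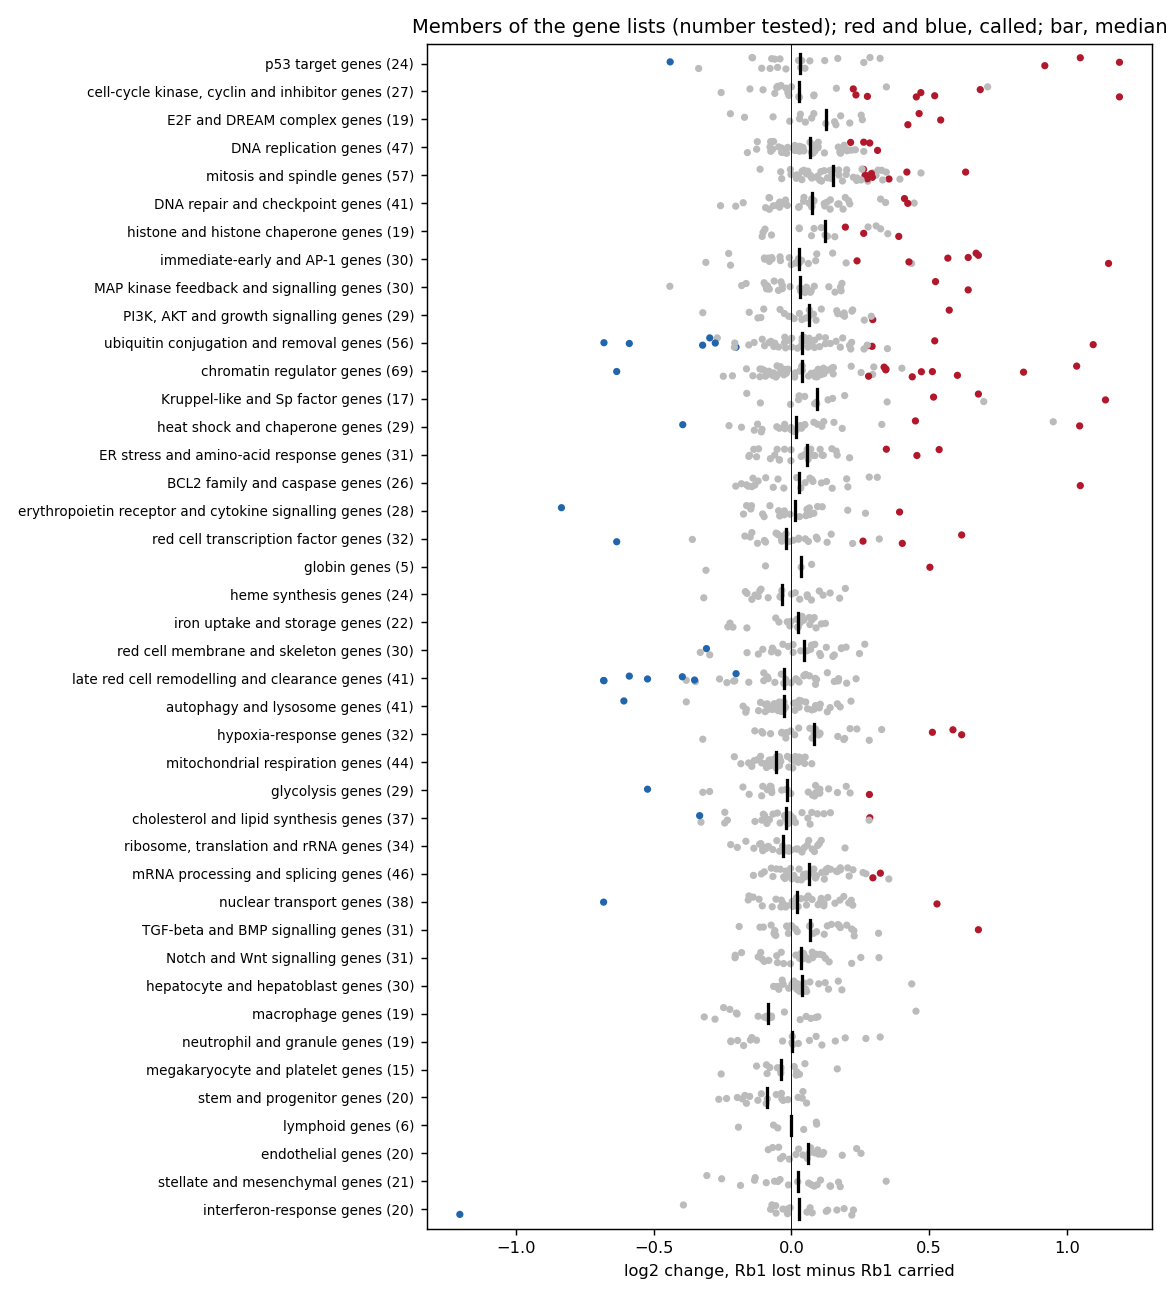
Log2 change with Rb1 loss for the members of each gene list, 1 point per gene, grey where not called, red and blue where called higher and lower, with a bar at the list's median and the number tested in brackets. The mitosis and spindle list lies to the right of 0 in 52 of 57 members. The late red cell remodelling list has 7 blue points and 0 red, with 17 of 41 members above 0.

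Chromatin regulators included 2 of the genes that separated completely. Of 69 tested, 10 were called higher and 1 lower (15.9%, against 2.27% of all genes), with a list median of 0.04. Phf13, which reads trimethylated lysine on histone H3, had the smallest p-value of any gene after Rb1 (adjusted p = 2.2e-13). For Phf13, the 22 arrays without Rb1 read 542 to 1004 (median 806), against 319 to 445 (median 384) on the 12 with it. The change was 1.04 ± 0.07, and the groups did not overlap. In the 4 backgrounds the change was 0.98 in wild type, 0.74 with p107 lost, 1.12 with p130 lost and 1.08 with both lost. Pcgf5, a subunit of a polycomb repressive complex, also separated completely. Pcgf5 signal was 899 to 1402 (median 1183) where Rb1 was present and 1468 to 2740.3 (median 2170.3) where it was lost. Its change was 0.84 ± 0.083 (adjusted p = 7.15e-09).

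Parts of the SIN3 histone deacetylase corepressor rose. Sap30 (0.60 ± 0.066, adjusted p = 5.57e-08), the scaffold Sin3a (0.34 ± 0.062) and the histone reader Ing1 (0.45 ± 0.077) were called. They were 3 of 18 members tested, against 2.27% called of all genes, in a group drawn up after its values were seen. The group's median was 0.13, and 6 were called with the array group as a block. Sap30 read 1195 at the lowest, 1499.5 at the median and 1914 at the highest with Rb1, and 1852, 2236 and 3033 without it. All 22 arrays lay above the carried mean for each of the 3. Hdac1, the brightest shared enzyme, changed by 0.04 ± 0.073 (adjusted p = 0.923).

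Other called chromatin genes were enzymes of opposing kinds. Kdm3a (0.51 ± 0.097) and Kdm7a (0.47 ± 0.13) remove methyl groups from histone H3, Kmt5a (0.34 ± 0.075) adds one to histone H4, and Sirt1 (0.44 ± 0.094) is a deacetylase. Mbd2 (0.28 ± 0.06) binds methylated DNA and Chd1 (0.34 ± 0.081) is a remodelling ATPase. A further 4 genes, named after their values were seen, belong to the JADE, BRPF and MYST acetyltransferase group: Jade3 (0.59 ± 0.088), Jade1 (0.31 ± 0.081), Brd1 (0.30 ± 0.066) and Epc1 (0.22 ± 0.063). They were 4 of 16 tested, against 2.27% called of all genes. Mllt3, a reader of acylated histones in the super elongation complex, was the 1 chromatin regulator called lower, at -0.63 ± 0.082 (adjusted p = 1.47e-06). The median Mllt3 signal was 3305 with Rb1 (range 1940.5 to 4779.8) and 2141 without it (range 1440.4 to 3360.1). Dnmt1, the brightest uncalled member, changed by 0.11 ± 0.12. Leaving out 1 array at a time, the calls of Kdm7a, Jade1 and Epc1 were lost in 21, 4 and 26 of 34, with an adjusted p of up to 0.120, 0.0755 and 0.125.

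Immediate-early genes rose in part. Of 30 immediate-early and AP-1 genes, 7 were called higher and 0 lower (23.3%, against 2.27% of all genes), while the list median was 0.03. Without replicate 9 of the Rb1;p130 DKO 8 were called higher. Fos, a subunit of the transcription factor AP-1, had the second largest rise. Arrays without Rb1 had Fos signals of 186 to 725 (median 436), against 124 to 223 (median 178) with it. The change was 1.15 ± 0.12 (adjusted p = 2.54e-08), and 1 array without Rb1, replicate 9 of the Rb1;p130 DKO, lay within the range of the others. Jund, another AP-1 subunit, changed by 0.57 ± 0.15. Dusp1, a phosphatase that shuts off MAP kinases, changed by 0.64 ± 0.07 (adjusted p = 4.25e-08). Dusp1 signal ran from 3449 to 5587 (median 4183) on the 12 arrays with Rb1 and from 5425 to 8282 (median 7082) on the 22 without it. Its relative Dusp10 changed by 0.52 ± 0.11, and these were the 2 called of 30 MAP kinase feedback genes (6.67%, against 2.27% of all genes). Ier3 (0.67 ± 0.15), Btg1 and Zfp36l2, which speeds decay of AU-rich mRNA (0.24 ± 0.06), completed the list with Klf10. The brightest uncalled members, Btg2 and Zfp36l1, changed by 0.03 ± 0.16 and -0.01 ± 0.07. Jund lost its call without p130 KO replicate 3 (adjusted p = 0.0516). Zfp36l2 lost its call without p130 KO replicate 3 (adjusted p = 0.0561).

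Of 17 Kruppel-like and Sp factor genes, 3 were called, all higher (17.6%, against 2.27% of all genes). Without replicate 9 of the Rb1;p130 DKO 4 were called higher. Klf10 and Klf11 are repressors first found as targets of TGF-beta, and Klf5 is known from dividing epithelium. Klf10 changed by 0.68 ± 0.083 (adjusted p = 6.23e-07), Klf11 by 0.52 ± 0.07 (3.94e-06) and Klf5 by 1.14 ± 0.20 (0.000224). The 12 arrays with Rb1 gave Klf5 signals of 111 to 314 (median 172), and the 22 without it 118 to 878 (median 520.0). Klf5 spread widely without Rb1, and its ranges overlap. Klf1, the master factor of red cells, changed by 0.09 ± 0.089 (adjusted p = 0.805), and Klf3 by -0.003 ± 0.078. Klf10 was the only called gene of 31 TGF-beta and BMP signalling genes (3.23%, against 2.27% of all genes). None of 31 Notch and Wnt genes was called in limma, with 2 higher and 0 lower at an unadjusted p under 0.05. With the array group as a block 1 of the Notch and Wnt genes was called higher.

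Stress genes moved singly. Of 24 p53 target genes, 3 were called higher (Cdkn1a, Bbc3 and Trp53inp1) and 1 lower (Gadd45a), with a median of 0.03. This was 16.7% of the list, against 2.27% of all genes. Without replicate 9 of the Rb1;p130 DKO 4 were called higher. Bbc3 encodes PUMA, a killer protein of the BCL2 family. It was the 1 called gene of 26 in the list of that family (3.85%, against 2.27% of all genes). With Rb1 the Bbc3 signal lay between 108 and 572 with a median of 283, and without it between 344 and 1296 with a median of 575. The change was 1.05 ± 0.20 (adjusted p = 0.000694), with overlap. Trp53inp1, which cooperates with p53 in arrest and death, changed by 0.92 ± 0.14 (5.09e-05). For Trp53inp1, the 22 arrays without Rb1 read 292 to 1170.0 (median 743), against 244 to 457 (median 379.9) on the 12 with it. Gadd45a, a damage-induced gene, went the other way at -0.44 ± 0.079 (0.000410). Gadd45a signal was 3199 to 5453 (median 3882) where Rb1 was present and 2129.8 to 3716 (median 2978) where it was lost. All 22 arrays lay below the carried mean. The uncalled Ei24 changed by -0.05 ± 0.093.

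In the endoplasmic reticulum and amino-acid response, 3 of 31 genes were called, all higher (9.68%, against 2.27% of all genes). They were Ddit3, the stress factor CHOP (0.54 ± 0.085), Mthfd2 of mitochondrial folate metabolism (0.46 ± 0.081) and the amino-acid transporter chain Slc3a2 (0.34 ± 0.087). The chaperone Hspa5 and the enzyme Asns changed by -0.00097 ± 0.11 and -0.0016 ± 0.082. Among 29 heat shock genes, Hspa1a (1.05 ± 0.25) and Dnajb1 (0.45 ± 0.082) rose and Dnajb2 (-0.39 ± 0.098) fell (10.3% called, against 2.27% of all genes). Hspa1a read 45.9 at the lowest, 299.6 at the median and 1166 at the highest with Rb1, and 264, 639 and 1918 without it. Hspa1a has a near-identical neighbour gene, so its signal cannot be assigned to it alone. Hspa8 and Hsp90aa1 changed by 0.02 ± 0.07 and 0.09 ± 0.063. Of 32 hypoxia-response genes, Mxi1, Kdm3a and Ankrd37 (0.59 ± 0.13) were called higher (9.38%, against 2.27% of all genes). Slc2a1, the glucose transporter, changed by -0.10 ± 0.092. Dnajb2 lost its call without wild type replicate 2 (adjusted p = 0.0623). The Slc3a2 call was lost in 3 of the 34 fits that left out 1 array, with an adjusted p up to 0.0528.

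Other firmly called rises came from genes of varied function. Nudt4, which degrades diphosphoinositol polyphosphates, was bright on every array. The median Nudt4 signal was 6563 with Rb1 (range 5955 to 12688) and 15059.7 without it (range 9912 to 22165). The change was 1.05 ± 0.11 (adjusted p = 2.23e-08). Fhl1, a LIM-domain protein, changed by 0.87 ± 0.09 (1.67e-08), from a median of 643 to 1229, with 3 of 22 arrays inside the range of those with Rb1. Plekhf2, a protein of early endosomes, separated completely. Arrays without Rb1 had Plekhf2 signals of 992 to 1711 (median 1204), against 625.1 to 822 (median 751) with it. Its change was 0.74 ± 0.079 (3.05e-08). Plek2, a relative of pleckstrin that acts on actin in late erythroblasts, changed by 0.80 ± 0.089 (5.81e-08). Plek2 signal ran from 1519 to 2745 (median 1748) on the 12 arrays with Rb1 and from 2255 to 4238 (median 3246) on the 22 without it. Slc20a1, a phosphate transporter, changed by 0.57 ± 0.071 (7.69e-07), and Gm45914, a predicted gene, by 0.78 ± 0.08 (1.26e-08). The deubiquitinase Otud1 changed by 1.10 ± 0.13 and the ubiquitin ligase Siah1a by 0.52 ± 0.066. The 12 arrays with Rb1 gave Otud1 signals of 126 to 242 (median 176), and the 22 without it 177 to 613 (median 416). Kpna1, an importin of nuclear transport, rose by 0.53 ± 0.082. Pik3cb, a catalytic subunit of PI3 kinase, rose by 0.30 ± 0.069, and Slc16a1, a lactate transporter, by 0.28 ± 0.064.

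**Figure D3:**
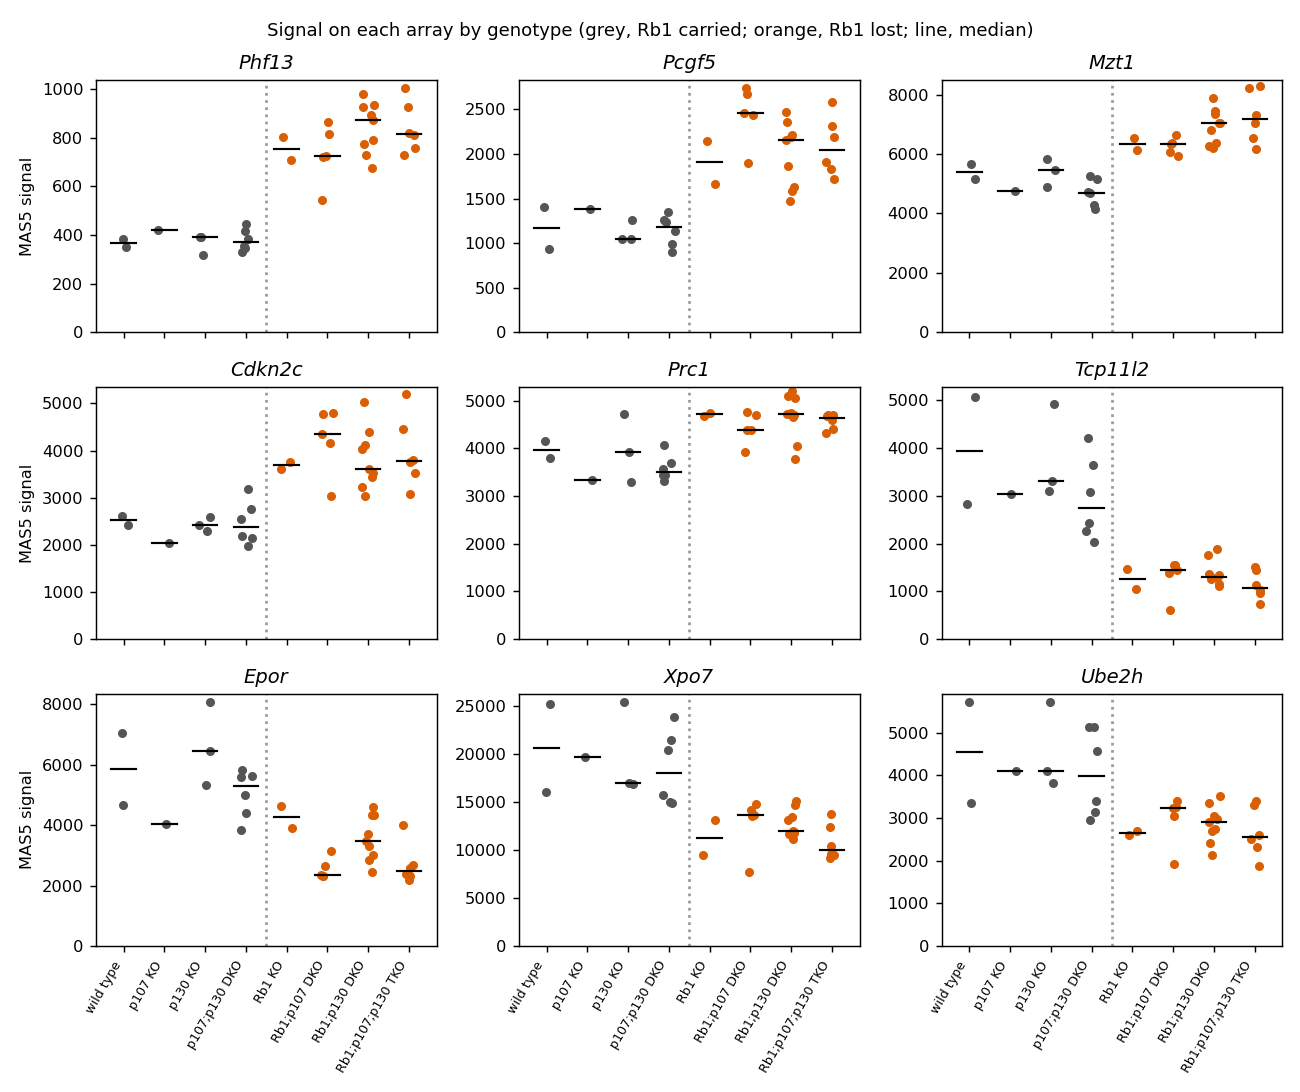
MAS5 signal on each of the 34 arrays for 9 called genes, by genotype, with arrays that carry Rb1 in grey and arrays without it in orange, and a line at each genotype's median. Phf13, Pcgf5, Mzt1 and Tcp11l2 show 2 groups that do not overlap, and in Cdkn2c, Prc1, Epor, Xpo7 and Ube2h the groups overlap.

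Some genes of late red cells fell, while their list as a whole lay near all genes tested. Of 41 late red cell remodelling and clearance genes, 7 were called lower and 0 higher (17.1%, against 2.27% of all genes). At an unadjusted p under 0.05, 12 were lower and 2 higher. The median was -0.03 against -0.016 for all genes, and 17 of 41 lay above 0, against 45.0% of all genes. Plek2, which also acts in late erythroblasts but was not on the list, rose, as given above. In these whole livers, fewer cells of a type and less RNA per cell cannot be told apart. Xpo7, a nuclear export receptor that carries histones out of the condensing nucleus, was the firmest. Its gene lies 2.53 Mb from Rb1, as taken up below. With Rb1 the Xpo7 signal lay between 14885 and 25362 with a median of 18334, and without it between 7672 and 15097 with a median of 12140.5. The change was -0.68 ± 0.094 (adjusted p = 6.73e-06), and 1 of 22 arrays without Rb1 lay within the range of the others. By genotype, median Xpo7 signals with Rb1 were 20591 in wild type, 19670.0 with p107 lost (1 array), 16997 with p130 lost and 18030.1 with both lost, and without Rb1 11268, 13654, 11954 and 9964 in the same order. Ube2o, which clears ribosomes and other proteins from reticulocytes, changed by -0.68 ± 0.12, and Ube2h, another ubiquitin-conjugating enzyme of red cell maturation, by -0.59 ± 0.10 (adjusted p = 0.000228 for both). For Ube2h, the 22 arrays without Rb1 read 1869.9 to 3518 (median 2829), against 2949 to 5720.3 (median 4096) on the 12 with it. Bpgm, which makes the bisphosphoglycerate that lowers the oxygen affinity of haemoglobin, changed by -0.52 ± 0.089 (0.000191). Bpgm signal was 4452 to 10438 (median 7543) where Rb1 was present and 3830.1 to 6616 (median 5098) where it was lost. All 22 arrays lay below the carried mean for Xpo7, Ube2h and Bpgm. Catalase, Cat, changed by -0.40 ± 0.098, Tmcc2 by -0.35 ± 0.089 and Fbxo9, a ubiquitin ligase subunit, by -0.20 ± 0.05. The 2 brightest uncalled members, Car2 (carbonic anhydrase) and Prdx2 (a peroxiredoxin), changed by 0.13 ± 0.086 and 0.07 ± 0.081. Fbxo9 lost its call without wild type replicate 2 (adjusted p = 0.0540).

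The erythropoietin receptor fell. Epor, the receptor that keeps erythroid progenitors alive, changed by -0.83 ± 0.096 (adjusted p = 1.51e-07). Epor read 3855 at the lowest, 5452 at the median and 8058 at the highest with Rb1, and 2174, 2939.8 and 4646 without it. By genotype, median Epor signals with Rb1 were 5845 in wild type, 4033 with p107 lost (1 array), 6446 with p130 lost and 5285 with both lost, and without Rb1 4278, 2347, 3489 and 2484 in the same order. Of 28 erythropoietin receptor and cytokine signalling genes, Epor was the 1 called lower and Socs3, which dampens the signal, the 1 called higher (0.39 ± 0.10). They were 7.14% of the list, against 2.27% of all genes. Without replicate 9 of the Rb1;p130 DKO, or when the fit had the array group as a block, the number called higher was 2. Pim1 changed by 0.20 ± 0.085 (adjusted p = 0.305) and Tfrc, the transferrin receptor, by 0.07 ± 0.074. The Socs3 call was lost in 5 of the 34 fits that left out 1 array, with an adjusted p up to 0.0686.

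Red cell transcription factor, heme and globin genes gave few calls. Of 32 red cell transcription factor genes, 3 were called higher, Mxi1, Gfi1b (0.40 ± 0.09) and Lyl1 (0.26 ± 0.064), and 1 lower, Mllt3. This was 12.5% of the list, against 2.27% of all genes, and 5 were called higher with the array group as a block. Gfi1b is a repressor needed for red cells and platelets, and Lyl1 is a partner of the same DNA-binding complexes as Tal1, which itself changed by 0.22 ± 0.077 (adjusted p = 0.157). Add2, the beta-adducin of the membrane skeleton, changed by -0.31 ± 0.082. It was the 1 called of 30 membrane and skeleton genes (3.33%, against 2.27% of all genes). With the array group as a block 2 others were called higher. Slc4a1, the anion exchanger band 3, changed by 0.10 ± 0.084. None of 24 heme synthesis genes and none of 22 iron genes was called at the adjusted threshold in limma, and at an unadjusted p under 0.05 they had 3 and 1 lower and 0 higher. With the array group as a block 1 iron gene was called lower. Urod and Slc25a39 of heme synthesis changed by 0.03 ± 0.10 and 0.14 ± 0.10, and Fth1, the ferritin heavy chain, by 0.08 ± 0.07. Of 5 globin genes tested, Hba-a2 was called higher (0.50 ± 0.11) from a dim probe set with medians of 157 and 245. Alpha globin genes are near-identical, so this value is uncertain. The embryonic Hbb-y changed by 0.07 ± 0.074 and Hba-x by -0.09 ± 0.17. The Add2 call was lost in 7 of the 34 fits that left out 1 array, with an adjusted p up to 0.0875.

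These 3 upstream stretches are printed because Epor, Ube2h and Tmcc2 fell and hold a match to the GATA site AGATAA, in capitals on either strand, the motif of the red cell factor GATA1. For Ube2h and for Tmcc2 the match is at 1 annotated start only, and their other starts hold none. The stretches lie at chr9:21963588-21963667, chr6:30243965-30244044 and chr1:132367949-132368028 (all minus strand) of GRCm38.p6, from RefSeq, 5′ to 3′ on the gene's strand.
Epor: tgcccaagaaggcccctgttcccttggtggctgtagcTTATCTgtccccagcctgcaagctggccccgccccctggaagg
Ube2h: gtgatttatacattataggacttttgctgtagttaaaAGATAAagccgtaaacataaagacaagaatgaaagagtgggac
Tmcc2: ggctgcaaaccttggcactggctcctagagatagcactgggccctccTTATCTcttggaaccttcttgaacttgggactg

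Tcp11l2 showed the largest fall after Rb1 and the dim gene Prr15l. The median Tcp11l2 signal was 3082 with Rb1 (range 2031 to 5059.7) and 1317 without it (range 614 to 1884). The groups did not overlap, and the change was -1.36 ± 0.13 (adjusted p = 2.18e-09). In the 4 backgrounds it was -1.59 in wild type, -1.26 with p107 lost, -1.41 with p130 lost and -1.34 with both lost. Prr15l changed by -1.42 ± 0.14 and Ldlrad4, an inhibitor of TGF-beta signalling, by -1.09 ± 0.15 (1.16e-08 and 4.39e-06). Both were dim. Arrays without Rb1 had Prr15l signals of 13.9 to 144 (median 67.4), against 73.7 to 455 (median 211) with it. Rsad2, the antiviral protein viperin, changed by -1.20 ± 0.24 (0.00179). It was the 1 called of 20 interferon-response genes (5%, against 2.27% of all genes). Rsad2 signal ran from 1326 to 4455 (median 2423) on the 12 arrays with Rb1 and from 417 to 2663 (median 1232) on the 22 without it. Ifitm3 and Irf9, which interferon also induces, changed by -0.06 ± 0.12 and 0.17 ± 0.10. Fmo2 and Tpbgl changed by -0.74 ± 0.21 and -0.70 ± 0.19 at signals near background. The calls of Fmo2 and Tpbgl did not survive every fit that left out 1 array and were lost in 23 and 15 of 34, with an adjusted p of up to 0.102 and 0.0795.

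Ubiquitin pathway genes split by direction. Of 56 tested, 4 were called higher (Otud1, Siah1a, Ube2s and Ube2z) and 6 lower (Ube2o, Ube2h, Ube2f, Ube2b, Rnf11 and Fbxo9). This was 17.9% of the list, against 2.27% of all genes. Ube2s, which extends chains for the anaphase-promoting complex, changed by 0.28 ± 0.063 and Ube2z by 0.29 ± 0.079. Ube2f conjugates the ubiquitin-like protein NEDD8 and changed by -0.32 ± 0.052 (adjusted p = 0.000102). The 12 arrays with Rb1 gave Ube2f signals of 2879 to 3803 (median 3208), and the 22 without it 2349.7 to 3328 (median 2558). Ube2b, a partner of RAD18 in DNA damage tolerance, changed by -0.30 ± 0.069, and the ligase adaptor Rnf11 by -0.28 ± 0.071. Trim10, a red cell ligase, changed by -0.15 ± 0.097 (adjusted p = 0.625) and Ube2e3 by 0.22 ± 0.092. Rnf11 lost its call without wild type replicate 2 (adjusted p = 0.0794) or p130 KO replicate 2 (adjusted p = 0.0523). The Ube2z call was lost in 6 of the 34 fits that left out 1 array, with an adjusted p up to 0.0792.

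Respiratory chain genes lay slightly low without passing the test. Of 44 mitochondrial respiration genes, 10 had a change above 0 against 45.0% of all genes, the median was -0.05, none was called in limma and 0 were higher and 3 lower at an unadjusted p under 0.05. Uqcrb and Cox6a1, the brightest, changed by 0.01 ± 0.048 and 0.05 ± 0.077. Among subunits of complex I, grouped after their values were seen, Ndufb10 (-0.26 ± 0.073), Ndufb6 (-0.24 ± 0.065) and Ndufb2 (-0.25 ± 0.065) were called lower. All 10 NDUFB genes tested lay below 0 (9 with the array group as a block) with a median of -0.14. This was not particular to NDUFB genes. Also below 0 were 12 of 13 NDUFA, 9 of 9 NDUFS and NDUFV, 14 of 17 ATP synthase and 29 of 39 proteasome genes. Their medians were -0.070, -0.081, -0.076 and -0.027, and none was called. Of 44 ribosomal protein genes, 21 lay below 0. Without replicate 1 of the Rb1;p107 DKO 2 of the 3 called NDUFB genes kept a call. With Rb1 the Ndufb2 signal lay between 3905 and 5386 with a median of 4444, and without it between 2801 and 4591 with a median of 3916. Ndufb2 lost its call without wild type replicate 1 (adjusted p = 0.0690) or p107;p130 DKO replicate 1 (adjusted p = 0.0568). Leaving out 1 array at a time, the calls of Ndufb10 and Ndufb6 were lost in 25 and 6 of 34, with an adjusted p of up to 0.113 and 0.0878.

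Scattered lipid, lysosome and redox genes fell. Plin2, which coats lipid droplets, changed by -0.36 ± 0.064 (adjusted p = 0.000410). For Plin2, the 22 arrays without Rb1 read 4292 to 6697 (median 5230.2), against 5379 to 9391 (median 6540.4) on the 12 with it. Lpin2, a phosphatidate phosphatase, was called lower at -0.33 ± 0.078 while Pnpla2, the triglyceride lipase, rose by 0.28 ± 0.074. They were 1 in each direction of 37 cholesterol and lipid genes (5.41% called, against 2.27% of all genes). Pld3, a lysosomal nuclease, was the 1 called of 41 autophagy and lysosome genes (2.44%, near the 2.27% of all genes, and 3 called with the array group as a block), at -0.61 ± 0.12. Pld3 signal was 999.6 to 2216 (median 1491) where Rb1 was present and 498 to 1573 (median 1039) where it was lost. The uncalled Ctsb and Map1lc3b changed by -0.03 ± 0.093 and 0.09 ± 0.079. Of 23 glutathione and peroxide enzyme genes, grouped after their values were seen, Glrx (-0.53 ± 0.11), Cat and Gss (-0.29 ± 0.075) fell and Gsr, glutathione reductase, rose (0.48 ± 0.08). Of all genes, 2.27% were called. Without replicate 9 of the Rb1;p130 DKO, 2 genes of this group were called higher and 4 lower. Bsdc1, Prr13 and Prokr1, a prokineticin receptor, were among the firmest small falls, at -0.59 ± 0.10, -0.50 ± 0.082 and -0.51 ± 0.082. Gss lost its call without wild type replicate 2 (adjusted p = 0.0513). The Pnpla2 call was lost in 3 of the 34 fits that left out 1 array, with an adjusted p up to 0.0862.

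Splicing, translation and transport lists showed few calls. Of 46 mRNA processing and splicing genes, Srsf4 (0.32 ± 0.065) and Luc7l2 (0.30 ± 0.062) were called higher (4.35% called, against 2.27% of all genes). None of 34 ribosome, translation and rRNA genes was called, and 1 was higher and 2 lower at an unadjusted p under 0.05 (1 called lower with the array group as a block). Of 38 nuclear transport genes, Kpna1 rose and Xpo7 fell (5.26% called), and 2 were called higher without replicate 1 of the Rb1;p107 DKO. Of 29 glycolysis genes, Slc16a1 rose and Bpgm fell (6.9% called, and 2 called lower without replicate 9 of the Rb1;p130 DKO). Tkt changed by -0.07 ± 0.13.

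Ligases and RNA regulators of the next 2 groups were put together after their values were seen. Of 12 ubiquitin ligases of the DNA damage response, with a median of 0.17, 5 were called higher and 0 lower, against 2.27% called of all genes. Beside Brca1 and Uhrf1 these were Rnf8 (0.27 ± 0.054) and Rnf168 (0.29 ± 0.063), which mark chromatin around breaks, and Rfwd3, which acts on stalled forks (0.50 ± 0.083, adjusted p = 0.000157). Rfwd3 read 3199 at the lowest, 4231 at the median and 5307 at the highest with Rb1, and 4659, 5881 and 7532 without it. The ranges overlap. Hexim1 (0.35 ± 0.081) and Mepce (0.30 ± 0.076) both belong to the 7SK particle that holds the elongation kinase P-TEFb inactive. They were the 2 called of 8 genes of that group, against 2.27% of all genes. The RNA-binding proteins Qk (0.39 ± 0.059), Fmr1 (0.39 ± 0.093) and Rc3h1, or roquin, which destabilizes mRNA (0.38 ± 0.10), rose by similar amounts. Mepce lost its call without p130 KO replicate 2 (adjusted p = 0.0595). The Rc3h1 call was lost in 6 of the 34 fits that left out 1 array, with an adjusted p up to 0.0873.

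Genes of the other liver cell types were not called. None of 30 hepatocyte, 19 macrophage, 19 neutrophil, 15 megakaryocyte, 20 stem and progenitor, 6 lymphoid, 20 endothelial and 21 stellate genes passed the limma threshold, and at an unadjusted p under 0.05 these 8 lists held 0, 1, 1, 0, 0, 0, 2 and 0 genes higher and 0, 2, 0, 0, 1, 0, 0 and 1 lower. The summed hepatocyte signal ran from 186133 to 302242 with Rb1 and from 201219 to 307429 without it. The summed macrophage signal ran from 17339 to 32206 and from 14385 to 26549. The ranges overlap in both lists. Alb and Afp, the chief hepatocyte products, changed by 0.13 ± 0.074 and 0.10 ± 0.067, Csf1r of macrophages by -0.08 ± 0.13 and Mpo of neutrophils by -0.13 ± 0.15. Macrophage medians lay at -0.08 and stem and progenitor medians at -0.09, and what part cell numbers have in the called changes was not tested.

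The Rb1 effect was of similar sign in every background, as far as the array numbers allow. Of the 289 called genes, 274 had the same sign in all 4 backgrounds and 15 in 3, against 22.7% with 1 sign throughout among all genes tested. The pooled call already uses these arrays, so the agreement is a description. By background, the sign matched in 285 called genes for Rb1 KO against wild type, 278 for Rb1;p107 DKO against the single p107 KO array, and 289 each with p130 lost and with both lost. The F test of a difference between the 4 effects called no gene, with 332 of 12719 at an unadjusted p under 0.05, 7 of them among the 289. It called 1 gene without replicate 9 of the Rb1;p130 DKO and 1 without replicate 2 of the triple knockout. The smallest adjusted p was 0.174, for Cpa1, a pancreatic carboxypeptidase whose median signal was 17.4 with Rb1 and 16.9 without it, with its highest value of 944 on the arrays with Rb1. Gas1, Sspo, Col6a3, Trank1 and Tmem59l followed with adjusted p from 0.482 to 0.958. A call of 0 does not show that the effects are alike: the wild type comparison rests on 2 arrays against 2, and the p107 one on 5 against 1.

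**Figure D4:**
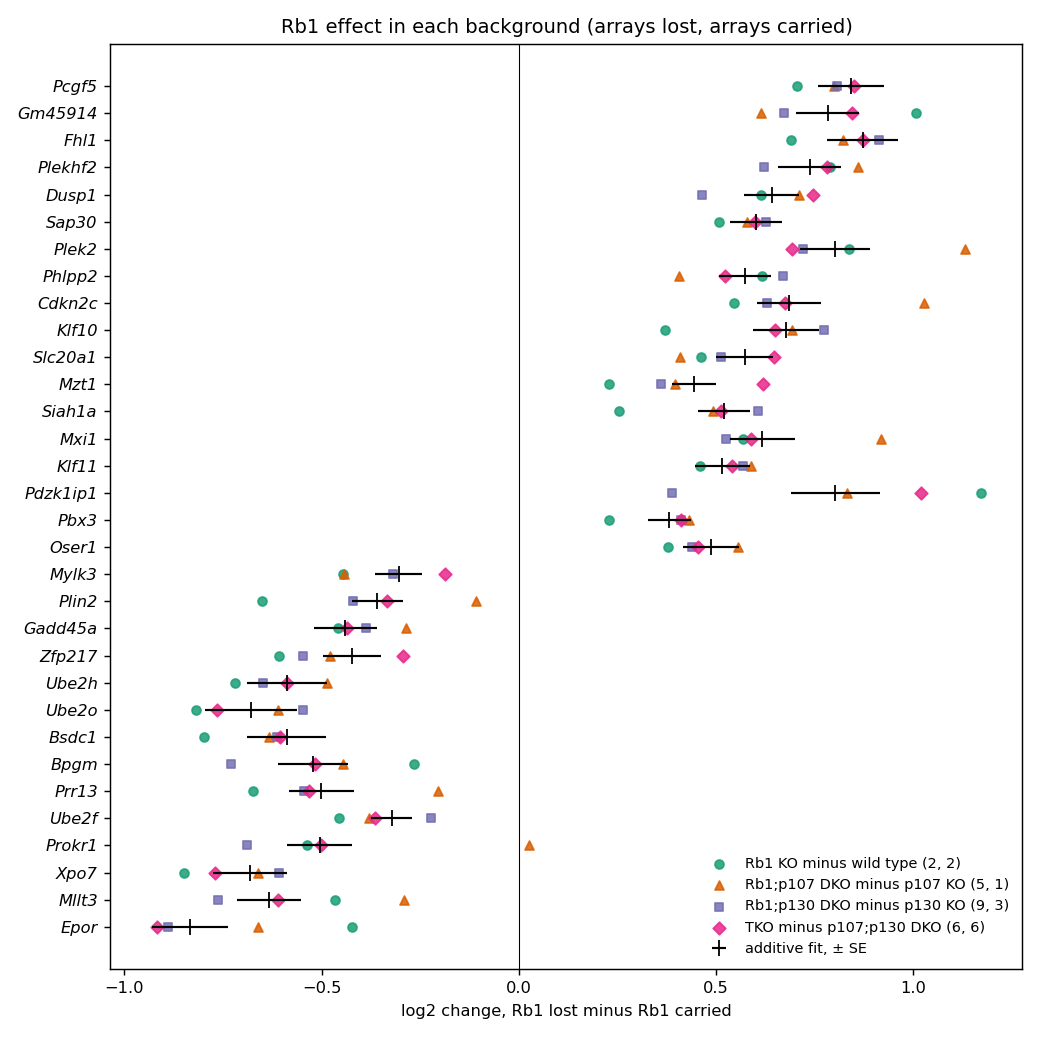
Log2 change with Rb1 loss in each of the 4 backgrounds (coloured symbols, arrays without and with Rb1 in brackets) and in the additive fit (bar, ± SE) for called genes with an absolute change under 1 and the largest test statistics. All symbols of a gene lie on the same side of 0 except Prokr1, which is at 0.025 in the background without p107.

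The p107 term of the same fit called 148 genes (1.16%) and the p130 term 2 (0.0157%). Of the 289 genes called for Rb1, 10 were also called for p107 and 0 for p130. Epor, Mllt3 and Prr15l fell with loss of either: the p107 term was -0.43 ± 0.092 for Epor, -0.32 ± 0.078 for Mllt3 and -0.74 ± 0.14 for Prr15l. H3c11, Paip2b, a translation repressor, and the kinase Rps6ka5 rose with either, with p107 terms of 0.54 ± 0.14, 0.30 ± 0.077 and 0.32 ± 0.079. Itsn1, Mknk1 and Tspan32 fell with either. Ankrd54 rose with Rb1 loss (0.27 ± 0.074) and fell with p107 loss (-0.29 ± 0.071). These 2 terms share all arrays of 1 fit, so this is a side by side reading. Tspan32 lost its call without p130 KO replicate 3 (adjusted p = 0.0541). The calls of Ankrd54, Mknk1 and Rps6ka5 did not survive every fit that left out 1 array and were lost in 20, 23 and 4 of 34, with an adjusted p of up to 0.113, 0.103 and 0.0692.

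Genes that neighbour Rb1 were counted because an allele and its surroundings are inherited together. On chromosome 14, Rb1 aside, 9 of 435 genes tested were called (2.07%, near the 2.27% over all genes), 8 higher and 1 lower. Within 10 Mb of Rb1 it was 4 of 89 (4.49%): Esco2 (0.63 ± 0.16), Kctd9 (0.32 ± 0.086), Pbk (0.29 ± 0.053) and Xpo7. The labels name no strain, and what part linked sequence has in these 4 was not tested. Esco2 lost its call without p107 KO replicate 1 (adjusted p = 0.0585) or p130 KO replicate 1 (adjusted p = 0.0558). The Kctd9 call was lost in 15 of the 34 fits that left out 1 array, with an adjusted p up to 0.0906.

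Promoters of the called genes were searched for 5 short motifs on both strands, from 250 bases before to 50 after the RefSeq start. The table held promoters for 197 of the 223 genes that rose (262 promoters), 54 of the 66 that fell (73) and 10281 of 12719 tested (13142). An E2F site (any of the 4 forms given above) occurred in 30.9% of promoters of genes that rose, 8.22% of those that fell and 15.8% of all. A GATA site (AGATAA) occurred in 2.29%, 15.1% and 6.83%. The CHR element (TTTGAA) was found in 16.4%, 13.7% and 12.2%, a CCAAT box (CCAAT) in 43.5%, 37.0% and 37.2%, and an AP-1 site (TGACTCA) in 2.29%, 5.48% and 3.89%. TTGGCGC can share bases with ATTGG, the complement of CCAAT, so these 2 searches are not separate where the sites adjoin. Median GC content was 64.7%, 59.3% and 60.3%. Within 4 equal bins of promoters by GC content, E2F matches in genes that rose against all were 18.8% against 6.16%, 38.3% against 14.4%, 21.6% against 19.2% and 37.6% against 23.0%, from lowest to highest GC. GATA matches in genes that fell against all were 31.6% against 15.6%, 8.70% against 7.54%, 5.88% against 3.33% and 14.3% against 1.27%, on 19, 23, 17 and 14 promoters. A match is a string of letters and not evidence of binding, and genes with several starts enter once per start.

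**Figure D5:**
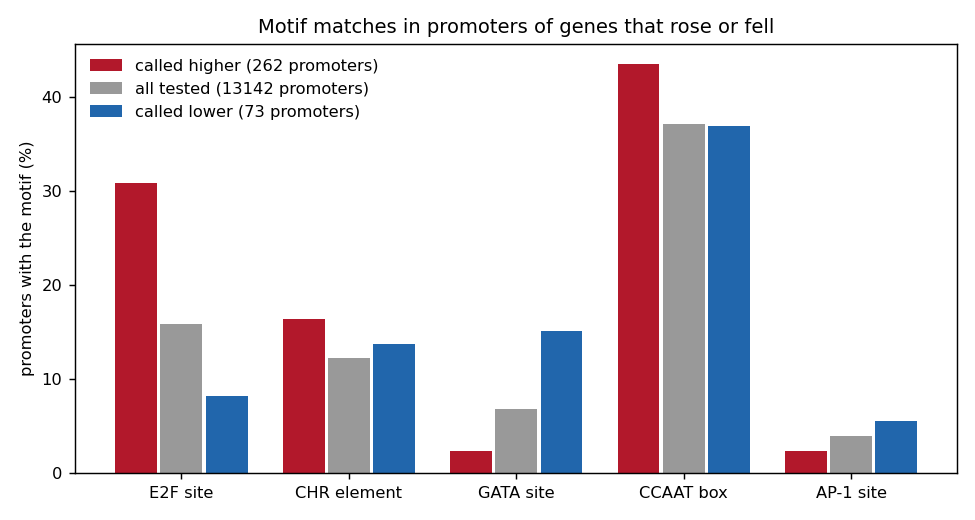
Share of promoters (percent) that hold each motif among genes called higher (red, 262 promoters), all genes tested (grey, 13142) and genes called lower (blue, 73). The E2F site is in 30.9% of the promoters of genes that rose against 15.8% of all, and the GATA site in 15.1% of those that fell against 6.83% of all.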

How the data were processed

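Total RNA of whole fetal liver was labelled with biotin by the one-cycle protocol and hybridized to 34 Affymetrix arrays, per the labels' protocols. The authors deposited 1 MAS5 intensity per probe set, made with GCOS 1.4, per the submitters' processing notes. The trimmed mean of each array was 495 to 498 as deposited and was set to 500 here. Of 45037 probe sets, 34945 had 1 gene symbol in the platform annotation, 932 several and 9160 none, and the last 2 kinds were left out. Each of 18193 genes took its probe set of highest mean log2(signal + 32). A gene entered the test if 2 or more arrays gave it a signal of 100 or more, which left 12719. MAS5 subtracts a mismatch signal, so low values are noisy.

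limma 3.58.1 in R 4.3.3 fitted terms for loss of Rb1, p107 and p130 (eBayes with a trend), with Benjamini-Hochberg adjustment, and a second fit of 8 genotype means gave the 4 background effects and an F test with 3 degrees of freedom. The code was tested on simulated data. Genes were named by rule: every Rb1 probe set, the 10 largest rises and falls, the 15 rises and 10 falls under 1 with the largest test statistic, up to 8 called members and 2 bright uncalled members of each of 42 lists, and 6 genes with the smallest p for a difference between backgrounds. Others are said to be chosen after their values were seen. The comparison, and with it its members, and the lists were chosen with earlier results of these data known. The 3 array groups came from clustering arrays on how the top 2 probe sets of a gene differed in log2 signal, over 2996 genes, with the number of groups set at 3. Alternatives covered the pseudocount, filter, normalization, probe set choice, variance model, sex, array group, replicate number and each array left out. Promoters are RefSeq sequences on GRCm38.p6. The number of arrays limits the precision, and no coordinates were taken from the array files.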

Additional observations from a re-analysis of the deposited data

Results flagged for a closer look

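Among the called genes named here, 632 sets of a gene in a genotype of 4 to 10 arrays were examined, and in 57 of them (9.02%) the highest or lowest array lay further from its neighbour than Dixon's 95% limit. Chance flags about 1 in 20 such sets. The arrays were not spread evenly: 20 lay on replicate 1 of the Rb1;p107 DKO and 10 on replicate 9 of the Rb1;p130 DKO. The cause was not tested. Each value is a MAS5 signal, followed by that of the nearest array of the same genotype.

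On replicate 1 of the Rb1;p107 DKO, 18 of 20 were low. Low values there were Brca1 at 2165 (next 3156), Dnajb2 at 1203 (next 1723), E2f8 at 5560.2 (next 8902), Hipk3 at 3468 (next 4286) and Jade3 at 1003 (next 1353). It was also lowest for Mxi1 at 3678 (next 5082), Pkn2 at 1103 (next 1688), Qk at 7323 (next 9653), Rfwd3 at 4953 (next 6986) and Slc3a2 at 6259 (next 8929). So it was for Srsf4 at 5259.9 (next 6281), Tcp11l2 at 614 (next 1374), Tpx2 at 3991 (next 5230.3), Trp53inp1 at 401 (next 824) and Ube2c at 22990.2 (next 29000.5). Lowest again were Ube2h at 1926 (next 3046), Ube2o at 1329 (next 2252) and Xpo7 at 7672 (next 13545). High there were Mllt3 at 2047 (next 1504) and Tspan32 at 2341 (next 1898).

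On replicate 9 of the Rb1;p130 DKO, 10 of 10 were low. Low values there were Cdkn2d at 5046 (next 8495), Clspn at 1911 (next 2854), Fbxo5 at 2987 (next 6272), Hexim1 at 1578 (next 2121) and Kdm7a at 1146 (next 2237). It was also lowest for Ndufb6 at 4093 (next 5314), Nusap1 at 5102 (next 7081), Pik3cb at 301 (next 411), Prr13 at 1847 (next 2857) and Rnf168 at 1263 (next 1609).

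Replicate 5 of the Rb1;p107;p130 TKO was low for Atad2 at 4719 (next 6612), Jade3 at 926 (next 1186) and Qk at 7150.0 (next 8795) and high for Bbc3 at 1234 (next 557), Cdkn1b at 3789 (next 2519.7) and Epor at 3999.6 (next 2673). Replicate 1 of the p107;p130 DKO was low for Pld3 at 999.6 (next 1362), Prr15l at 127 (next 185) and Rps6ka5 at 147 (next 200.2) and high for Siah1a at 1567 (next 1259). Replicate 4 of the p107;p130 DKO was low for Fbxo5 at 4307 (next 5495) and high for Fhl1 at 931 (next 676) and Uhrf1 at 10481 (next 8036). Replicate 3 of the Rb1;p107 DKO was low for Ankrd37 at 145 (next 189), Gadd45a at 2129.8 (next 2690.2) and Rad51c at 447 (next 597). Replicate 6 of the Rb1;p130 DKO was low for Btg1 at 2234 (next 3022) and Klf10 at 1144 (next 1441). Replicate 5 of the p107;p130 DKO was low for Cdk1 at 6365 (next 7024) and Fmo2 at 36.7 (next 125). Replicate 5 of the Rb1;p107 DKO was high for Cdk1 at 8292 (next 7914). Replicate 3 of the p107;p130 DKO was low for Cdkn1a at 129.5 (next 220.0). Replicate 7 of the Rb1;p130 DKO was high for Mllt3 at 3360.1 (next 2418). Replicate 8 of the Rb1;p130 DKO was low for Ncapd3 at 2398 (next 2767). Replicate 2 of the Rb1;p107;p130 TKO was low for Rragd at 117 (next 195). Replicate 4 of the Rb1;p107;p130 TKO was high for Slbp at 20891 (next 18609). Replicate 4 of the Rb1;p130 DKO was low for Tspan32 at 2017 (next 2334).

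No difference between the backgrounds passed the test, so none is listed here, and every deposited value of a named gene entered the comparisons.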

How the results depend on the processing

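All 158 called genes named here kept their direction under every alternative but 1, the fit within array group 3 alone (7 arrays without Rb1 against 2 with it). There 11 turned over: Ccna2 (-0.024), Cdkn2d (-0.044), Gfi1b (-0.013), Ier3 (-0.23), Rnf168 (-0.015), Slc3a2 (-0.19), Srsf4 (-0.0076), Stk11 (-0.066), Ube2c (-0.041), Ube2s (-0.057) and Uhrf1 (-0.24). The number called, 289, was 251 to 319 under other pseudocounts (1 or 100), filters, normalizations, probe set choice and limma moderation. It was 508 with array weights and 561 with the array group as a block (380 higher, 181 lower). It was 122 and 119 as an equal-weight mean of 4 or 3 backgrounds, 24 on arrays with Xist alone, 57 on arrays with Y-linked genes alone, 186 and 4 in array groups 2 and 3 alone, and 46 on arrays that carry p107 or p130. The means of backgrounds reweight the arrays, and the other 5 are subsets with fewer arrays. It was 28 and 7 against an added fold of 1.2 and 1.5. Leaving out 1 array gave 241 to 337, and 241 came without replicate 2 of the p130 KO. Of the 158 named genes, 79 lost their call as a mean of 4 backgrounds, and 44 of 156 when all probe sets of a gene were averaged. Genes whose Rb1 effect differed between backgrounds numbered 0 in the fit reported and in most alternatives, 2 with a pseudocount of 1, and 1 with a pseudocount of 100, with array weights, without replicates 8 and 9 of the Rb1;p130 DKO, and 0 to 1 when 1 array was left out.

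Replicate numbers were not taken to pair the arrays, because the labels do not say what they stand for. Same-numbered pairs did deviate together more often than others. The correlation was over 0.1 in 27 of 67 same-numbered pairs (median 0.068) and in 76 of 380 differently numbered pairs (median -0.0086). Of 30 arrays, 8 correlated best with their own number. Whether same-numbered arrays share a batch was not tested. With the replicate number as a block 399 genes were called, 262 higher and 137 lower (65.7% higher against 77.2%), and 0 differed between backgrounds. The DNA replication list then had 2 called and a median of 0.0012. Genes called higher numbered 7 against 9 for mitosis and 1 against 2 for condensin. They numbered 9 against 8 for centrosome genes and 11 against 10 for chromatin regulators. Calls also varied with the signal of a gene. Of 4 equal bins of genes by mean signal, 5.22% were called in the brightest and 0.314% in the dimmest, so small changes in dim genes were less often detectable.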

Other observations

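Signalling genes outside the lists made up part of the called set, and the genes here were chosen after their values were seen. Nr3c1, the glucocorticoid receptor, which fetal erythroblasts use under stress, rose by 0.50 ± 0.076 (adjusted p = 3.46e-05). The median Nr3c1 signal was 704 with Rb1 (range 516 to 919.9) and 1028 without it (range 798 to 1266). The kinases Pkn2, Hipk3 and Stk11, the last of which activates AMPK, changed by 0.47 ± 0.069, 0.36 ± 0.083 and 0.26 ± 0.061. The small GTPases Rap1a and Rhebl1, the latter an activator of mTORC1, changed by 0.34 ± 0.069 and 0.57 ± 0.11.

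A few single genes of lysosomes and innate immunity fell, chosen after their values were seen. The autophagy and lysosome list and the interferon-response list had 2.44% and 5% called, against 2.27% of all genes. Rragd, a GTPase that docks mTORC1 on the lysosome, changed by -0.43 ± 0.11, and Atp6v1e1, a subunit of the proton pump, by -0.29 ± 0.059. A second, dimmer Atp6v1e1 probe set did not show the fall, with a change of 0.17 ± 0.21. Of 16 vacuolar ATPase genes tested, 13 lay below 0 with a median of -0.071, and Atp6v1e1 was the 1 called. Mavs, the adaptor of RNA sensing on mitochondria, changed by -0.56 ± 0.14 (adjusted p = 0.0253), while Peli1, a ligase of interleukin-1 and Toll-like receptor signalling, rose by 0.51 ± 0.075. Arrays without Rb1 had Mavs signals of 783 to 3339 (median 1919.9), against 1955 to 3980.1 (median 2767) with it. The ranges overlap. Leaving out 1 array at a time, the calls of Rragd and Mavs were lost in 4 and 4 of 34, with an adjusted p of up to 0.0793 and 0.0670.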
